A study of Mus musculus with 4 samples.

Results

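Mitochondrial carriers and import translocases were described here by name: every row of the deposited gene table whose symbol begins with Slc25a, Timm or Tomm and a digit, or is Mpc1, Mpc2, Vdac1, Vdac2 or Vdac3. Of 21738 listed genes, 74 fitted the pattern, and 73 remained once the pseudogene Slc25a5-ps was left out. They comprise 44 Slc25a carriers, 24 Tomm and Timm genes, the 2 pyruvate carrier subunits and the 3 voltage-dependent anion channels. RNA that came down with an antibody against 4E-T (2 libraries) was compared with RNA in a control immunoprecipitate with IgG (2 libraries), from neurospheres grown for 7 days from the ventricular-subventricular zone of wild-type (WT) CD1 mice of age P7/P8. 4E-T is a P-body protein that binds the cap-binding factor eIF4E, and the comparison asks which mRNAs had a larger share in its immunoprecipitate. Genotype, strain, age and culture time were the same in all 4 libraries, and a library of input RNA was not analysed here. The labels number 1 library of each antibody as Exp1 and the other as Exp2, and do not say whether the experiments used separate cultures or animals.

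Nearly all mitochondrial proteins are made in the cytosol and enter the organelle through translocases. Precursors pass the outer membrane through the TOM complex, whose pore is Tomm40, and are then sorted to TIM23, which serves the matrix and inner membrane, or to TIM22, which inserts carriers. Small Tim chaperones escort hydrophobic carrier precursors between the membranes. Slc25a carriers then move nucleotides, phosphate, amino acids, carboxylates and cofactors across the inner membrane, while Vdac channels let metabolites through the outer one. The mRNAs for such proteins are known to be translated in part at the mitochondrial surface.

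The libraries held 72769612 to 85828188 reads over the listed genes, recovered from the deposited values as whole reads, of which the 73 members took 0.723% and 0.718% in IgG against 0.658% and 0.674% in 4E-T. FPKM are reads scaled by gene length and library size, here on the authors' scaling. Neural precursor markers (Sox2, Nes, Fabp7, Vim, Pax6, Hes1 and Olig2) had FPKM of 7.11 to 3475 in every library. The neuron markers Rbfox3 and Snap25 lay between 0.318 and 2.32, the endothelial markers Pecam1 and Cldn5 between 0.0583 and 0.236, and the microglial marker Csf1r between 0.0142 and 0.0332. Since the libraries are bulk RNA, fewer cells of a type and less RNA per cell cannot be told apart, and scaled values leave the amount of recovered RNA unknown.

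Members were spread over a wide range of levels. Averaged over the 4 libraries, 6 members had an FPKM of at least 100, 42 lay from 10 to 100, 19 from 1 to 10 and 6 under 1. Slc25a5, the main adenine nucleotide translocase of dividing cells, was by far the most abundant, with 802 and 710 FPKM in IgG against 980 and 892 in 4E-T, and ranked 18 among 12585 tested genes. Its relative Slc25a4 followed at rank 79, and Slc25a39, needed for mitochondrial glutathione, at rank 168. The translocases Slc25a4 and Slc25a5 together made up 31.9% and 30.8% of the members' summed FPKM in IgG against 35.3% and 34.8% in 4E-T. The members' sum was 1.02% and 0.984% of all FPKM with IgG, and 0.99% and 1.01% with 4E-T. As shares of the FPKM, the groups overlapped.

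Tested genes had an FPKM of at least 1 in at least 2 libraries, which 68 of the 73 members met. The carriers Slc25a2 (21 to 30 reads per library), Slc25a21 (13 to 31), Slc25a34 (13 to 25) and Slc25a41 (7 to 16) fell under it, as did the antisense transcript Tomm6os (47 to 146). With 4E-T, 13 members were higher and 13 lower (limma, adjusted p under 0.05), and 42 were not called. That is 38.2% of the tested members called, beside 49.5% of all tested genes. Calls higher with 4E-T covered 19.1% of the members against 34.3% of all tested genes, and calls lower 19.1% against 15.2%. The median difference on the log2(FPKM + 1) scale was 0.012 over the members and 0.16 over all tested genes. Both 4E-T libraries lay above both IgG libraries for 26 members and below them for 22, against 50.5% and 25.2% of all tested genes, and the groups overlapped for 20. The groups were apart in all 4318 genes called higher and all 1912 called lower, so in a called gene this adds nothing to the call. No member reached the upper end of the distribution: Slc25a25 was the highest at 0.62, and 15.5% of the other tested genes lay above it.

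**Figure D1:**
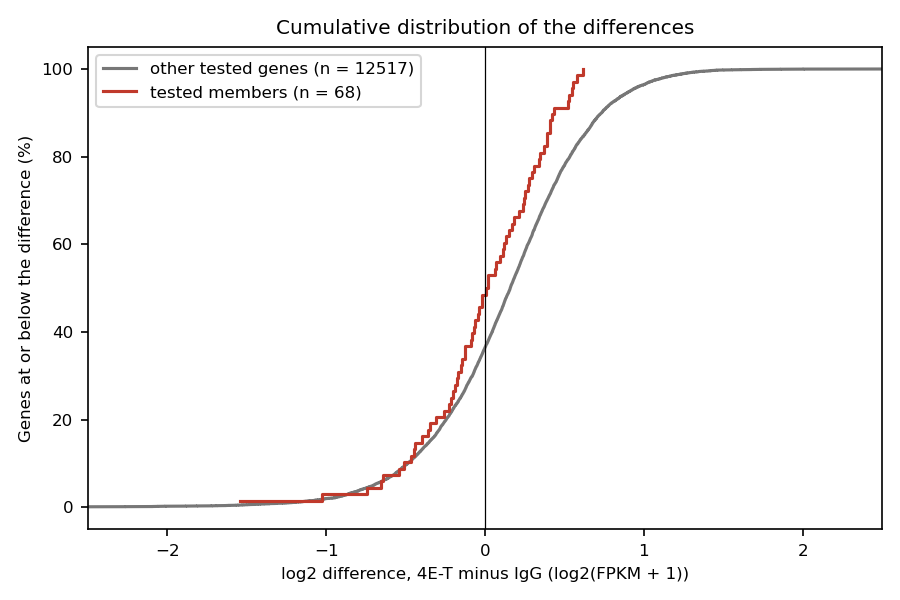
Cumulative share of genes (vertical axis, %) by log2 difference, 4E-T minus IgG, on the log2(FPKM + 1) scale (horizontal axis), for 68 tested members and 12517 other tested genes. The members' median is 0.012 and their highest value 0.62, while 15.5% of the other genes lie above that value.

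Scaling and single libraries shifted the balance between higher and lower calls. Median ratio scaling moved the median of all tested genes from 0.16 to -0.0025 and gave 6 members higher and 23 lower. Quantile normalisation gave 6 and 21, and a correction for exon length 8 and 19. Over all tested genes higher and lower calls then came to 22.8% and 23.6% (median ratio), 25.1% and 22.5% (quantile) and 24.9% and 22.0% (length). On the authors' FPKM scaling they were 34.3% and 15.2%, so lower calls rose and higher calls fell among all genes too. Lower calls outnumbered higher ones among the members with each setting, and among all genes with median ratio scaling only. All 13 members called lower by limma on the authors' FPKM scaling were also called lower with each of these 3 settings. Of the 13 called higher, 6, 6 and 7 were also called higher. Each setting lowers the median of all tested genes and so favours lower calls, and these counts do not compare how firm the calls were. Leaving out the Exp1 IgG library gave 5 higher and 7 lower members, the Exp2 IgG library gave 2 and 8, the Exp1 4E-T library gave 6 and 8, and the Exp2 4E-T library gave 13 and 10. Called under every alternative tried were Slc25a46, Slc25a30, Slc25a42 and Slc25a44, which were lower, and Slc25a29, which was higher. In the authors' deposited table, 13 members were higher and 12 lower at an adjusted p under 0.05. Of all listed genes that table calls 32.0%, with 20.0% higher and 11.9% lower. Of the calls made here, 12 higher and 11 lower stood in the authors' deposited table in the same direction.

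**Figure D2:**
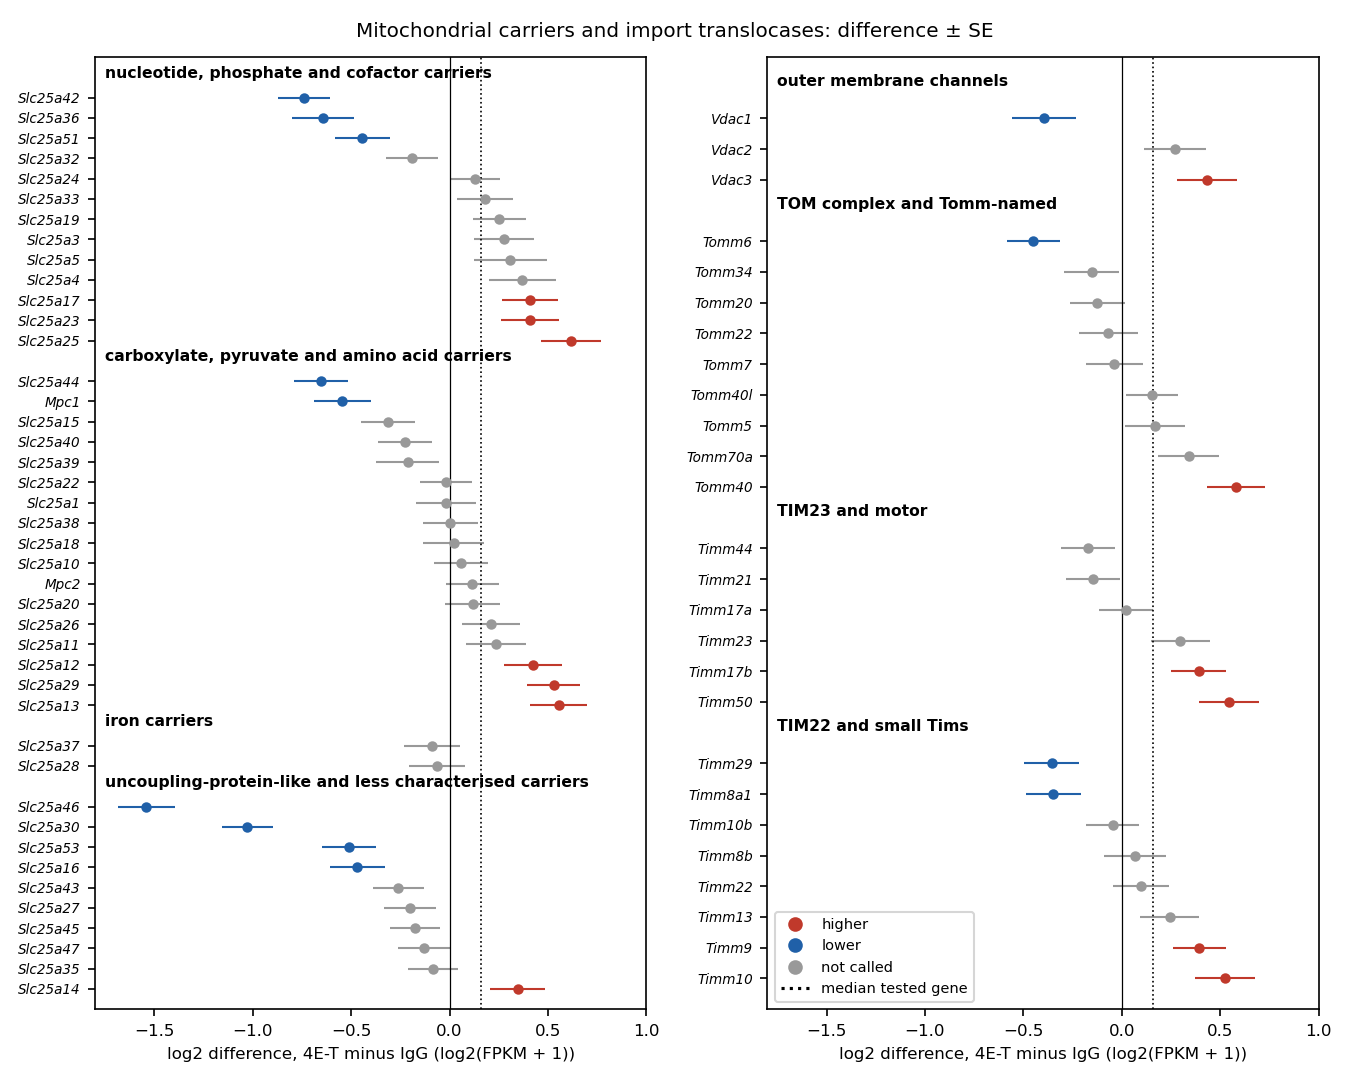
Log2 difference, 4E-T minus IgG, on the log2(FPKM + 1) scale (horizontal axis) for the 68 tested members by role, with bars for ± 1 SE (n = 2 libraries per antibody) and colours for limma calls at an adjusted p under 0.05. The dotted line is the median tested gene at 0.16. Slc25a46 lies farthest from it at -1.54. Below 0 lie 9 of the 10 uncoupling-protein-like and less characterised carriers, 33 of the 68 tested members and 4592 of 12585 tested genes.

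The uncoupling-protein-like and less characterised carriers held Slc25a46 and Slc25a30, the tested members with the largest differences. Of 11 listed, 10 were tested, with 1 higher, 4 lower and 5 not called, and a median log2 difference of -0.23. Higher calls thus covered 10% and lower calls 40%, against 34.3% and 15.2% of all tested genes. Slc25a46 (ENSMUSG00000024259.8), an outer membrane protein of the carrier family with a role in mitochondrial dynamics, had 50.6 and 40.5 FPKM in IgG against 14.2 and 15.7 in 4E-T. It was 2.91-fold higher with IgG (log2 difference -1.54 ± 0.14, SE, n = 2 per antibody; limma adjusted p = 2.77e-09). The gap stood at -1.77 within Exp1 and -1.31 within Exp2. Of the other tested genes, 61 (0.487%) lay lower than Slc25a46. The authors' deposited table gives it a log2 fold change of -1.61 with an adjusted p of 1.91e-22. Read depth was no limit for Slc25a46, with 4629 to 20262 reads per library.

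Slc25a30, a carrier related to the uncoupling proteins and also called KMCP1 (ENSMUSG00000022003.7; chromosome 14, 75757534 to 75787037, GRCm38.p6), had 5.92 and 6.08 FPKM in IgG against 2.52 and 2.34 in 4E-T. The libraries of each antibody lay close together, and the fold was 2.04 towards IgG (log2 difference -1.03 ± 0.13, limma adjusted p = 3.53e-07). Slc25a46 and Slc25a30 were the tested members that differed by at least 2-fold on the log2(FPKM + 1) scale. Among all tested genes 5.47% were called with at least that fold in either direction and 1.91% lower. Slc25a53, a carrier with no settled substrate, had 5.35 and 4.31 FPKM in IgG against 2.73 and 3.46 in 4E-T (log2 difference -0.51 ± 0.14, limma adjusted p = 0.00308). Leaving out the Exp1 IgG library (adjusted p = 0.107) or the Exp1 4E-T library (0.0573) ended its call, in a range of 0.000578 to 0.107 across alternatives. The span of Slc25a53 also contains all or part of Zcchc18, and reads of overlapping genes could not be assigned by strand in these libraries. Slc25a16 had 16.5 and 13.5 FPKM in IgG against 10.4 and 10.6 in 4E-T (log2 difference -0.47 ± 0.14, limma adjusted p = 0.00701). Without the Exp1 IgG library it was not called (adjusted p = 0.126, range 0.000309 to 0.126). Slc25a14, a brain-expressed relative of the uncoupling proteins, was the member of the group called higher (9.34 and 8.27 against 12.7 and 10.3 FPKM; log2 difference 0.35 ± 0.14, limma adjusted p = 0.0425). That call was lost with no filter on low values, without the robust option, with each of the 3 other scalings or corrections and on leaving out the Exp1 IgG library, the Exp2 IgG library or the Exp1 4E-T library (adjusted p from 0.0159 to 0.365 across alternatives), and was not made in the authors' deposited table. The remaining Slc25a27, Slc25a35, Slc25a43, Slc25a45 and Slc25a47 had differences from -0.26 to -0.082 and were not called on the authors' FPKM scaling. Slc25a27 was called lower with each of the 3 other scalings or corrections, and Slc25a43 with median ratio scaling.

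**Figure D3:**
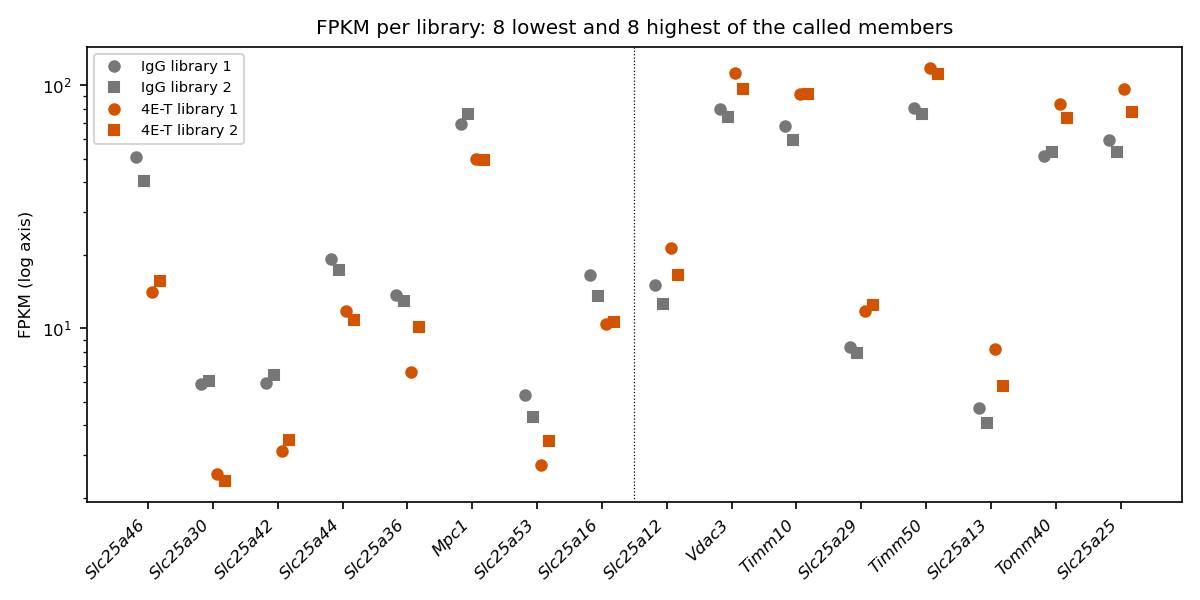
FPKM in each library (vertical log axis) for the 8 called members with the most negative difference (left of the dotted line) and the 8 with the most positive one (right), with grey for IgG, orange for 4E-T, circles for Exp1 and squares for Exp2. The 4E-T libraries lie on one side of the IgG libraries for each gene, as they do for every called gene. The widest gap is that of Slc25a46 (40.5 to 50.6 against 14.2 to 15.7 FPKM).

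Carriers of nucleotides, phosphate and cofactors moved both ways. Of 14 listed, 13 were tested, with 3 higher and 3 lower and a median log2 difference of 0.25. Calls in each direction covered 23.1%, against 34.3% higher and 15.2% lower over all tested genes. Slc25a42, which brings coenzyme A into the matrix, had 5.97 and 6.41 FPKM in IgG against 3.13 and 3.49 in 4E-T (log2 difference -0.74 ± 0.13, limma adjusted p = 3.92e-05). Its level was 1.67-fold higher with IgG. The pyrimidine nucleotide carrier Slc25a36 had 13.8 and 13.0 FPKM in IgG against 6.61 and 10.1 in 4E-T (log2 difference -0.64 ± 0.16, limma adjusted p = 0.00205). The 4E-T libraries of Slc25a36 differed from each other, so that the gap was -0.96 within Exp1 and -0.33 within Exp2. Leaving out the Exp1 IgG library (adjusted p = 0.0654) or the Exp1 4E-T library (0.0926, range 3.47e-06 to 0.0926) ended its call. Slc25a51, the mitochondrial NAD carrier, was lower too (16.1 and 16.9 against 11.2 and 12.6 FPKM; log2 difference -0.44 ± 0.14, limma adjusted p = 0.00911). Without the Exp2 IgG library or the Exp1 4E-T library Slc25a51 was not called (highest adjusted p = 0.0938, lowest 0.000546 over all alternatives).

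In the same group Slc25a25 and Slc25a23, calcium-regulated carriers of ATP-magnesium against phosphate, were higher. Slc25a25 (ENSMUSG00000026819.15; chromosome 2, 32414487 to 32451470) had 59.8 and 53.2 FPKM in IgG against 97.0 and 77.9 in 4E-T, a 1.53-fold increase (log2 difference 0.62 ± 0.15, limma adjusted p = 0.00157). Both 4E-T libraries lay above both IgG libraries, as in every gene called higher. Leaving out the Exp2 IgG library ended the call (log2 difference 0.53). The span of Slc25a25 shares 1014 bp with Naif1. Slc25a23 had 53.7 and 52.8 FPKM in IgG against 67.3 and 75.0 in 4E-T (0.41 ± 0.15, limma adjusted p = 0.0216). Slc25a24, a carrier of the same substrates, had a difference of 0.13 ± 0.13 (limma adjusted p = 0.421). Slc25a17, a peroxisomal carrier of cofactors and so not a mitochondrial one, was also higher (34.6 and 31.2 against 46.3 and 41.6 FPKM; 0.41 ± 0.14, limma adjusted p = 0.0191). Median ratio scaling, quantile normalisation and leaving out the Exp1 IgG library or the Exp2 IgG library ended the calls of Slc25a17 and Slc25a23, with adjusted p from 0.00704 to 0.195 and from 0.0104 to 0.204 across alternatives. That of Slc25a17 also ended with no filter and on leaving out the Exp1 4E-T library, and that of Slc25a23 with the length correction and on leaving out the Exp2 4E-T library.

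The abundant housekeeping carriers were not called. Slc25a5 had a log2 difference of 0.31 ± 0.19 (limma adjusted p = 0.169), although its 4E-T libraries (980 and 892 FPKM) lay above its IgG libraries (802 and 710). Slc25a4, the translocase of muscle and brain, had 273 and 273 FPKM in IgG against 373 and 334 in 4E-T (log2 difference 0.37 ± 0.17, limma adjusted p = 0.0692). Leaving out the Exp2 4E-T library brought it past the threshold (adjusted p = 0.0262, range 0.0262 to 0.295), and the authors' deposited table calls it higher (adjusted p = 0.0229). The phosphate carrier Slc25a3 had 79.1 and 68.5 FPKM in IgG against 87.4 and 91.3 in 4E-T (log2 difference 0.28 ± 0.15, limma adjusted p = 0.130). For all 3 genes the groups did not overlap, as for 75.7% of all tested genes, and their differences were 0.12 to 0.21 above that of the median tested gene. Reads of Slc25a5 may be shared with processed copies; the listed one, Slc25a5-ps, had 26 to 35 reads per library against 77904 to 91172 for Slc25a5.

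Among carriers of carboxylates, pyruvate and amino acids, 17 of 19 were tested, with 3 higher, 2 lower and 12 not called, and a median of 0.020. These calls covered 17.6% and 11.8%, against 34.3% higher and 15.2% lower over all tested genes. Slc25a44, which takes up branched-chain amino acids, had 19.3 and 17.4 FPKM in IgG against 11.8 and 10.8 in 4E-T (log2 difference -0.65 ± 0.14, limma adjusted p = 0.000324). Its differences in the 2 experiments were -0.67 and -0.64. Mpc1, an obligate subunit of the pyruvate carrier (ENSMUSG00000023861.17; chromosome 17, 8283787 to 8297667), had 69.7 and 76.1 FPKM in IgG against 49.9 and 49.4 in 4E-T (log2 difference -0.54 ± 0.15, limma adjusted p = 0.00288). Without the Exp2 IgG library it was not called (adjusted p = 0.0804, range 0.000112 to 0.0804), and its span shares 4302 bp with the non-coding gene 4930506C21Rik. Mpc2, the partner of Mpc1 in the carrier, had 5.92 and 6.14 FPKM in IgG against 7.26 and 6.02 in 4E-T, groups that overlap (log2 difference 0.11 ± 0.14, limma adjusted p = 0.498).

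The aspartate-glutamate carriers Slc25a12 (aralar) and Slc25a13 (citrin), which serve the malate-aspartate shuttle, were both higher. Slc25a13 had 4.70 and 4.09 FPKM in IgG against 8.22 and 5.79 in 4E-T (log2 difference 0.55 ± 0.15, limma adjusted p = 0.00277). Slc25a12 had 15.1 and 12.6 against 21.4 and 16.6 FPKM (log2 difference 0.42 ± 0.15, limma adjusted p = 0.0189). In each of the pair the Exp1 4E-T library was the highest, and neither was called without the Exp1 4E-T library (adjusted p = 0.104 for Slc25a13, range 4.11e-05 to 0.104, and 0.268 for Slc25a12) or without the Exp2 IgG library (0.0922 and 0.247). Slc25a12 was also not called with no filter or with any of the 3 other scalings or corrections (adjusted p from 0.00304 to 0.365 over all alternatives). The basic amino acid carrier Slc25a29 had 8.35 and 7.89 FPKM in IgG against 11.8 and 12.5 in 4E-T (log2 difference 0.53 ± 0.14, limma adjusted p = 0.00192). The oxoglutarate carrier Slc25a11, which works with aralar and citrin in that shuttle, had a difference of 0.24 ± 0.15 (limma adjusted p = 0.199). The citrate carrier Slc25a1, at 107 and 111 FPKM in IgG against 108 and 108 in 4E-T, had a difference of -0.017 ± 0.15 (limma adjusted p = 0.935). Slc25a39 had 219 and 222 FPKM in IgG against 191 and 189 in 4E-T (-0.21 ± 0.16, limma adjusted p = 0.282), and its low relative Slc25a40 a difference of -0.23 ± 0.14 (limma adjusted p = 0.168). With median ratio scaling both were called lower (adjusted p = 0.0256 and 0.0446). Slc25a39 was also called lower with quantile normalisation, and Slc25a40 with the length correction.

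The iron carriers of mitochondria, the mitoferrins Slc25a37 and Slc25a28, overlapped between antibodies. Slc25a37, the mitoferrin of red cell precursors, had 2.96 and 2.93 FPKM in IgG against 2.19 and 3.31 in 4E-T. Slc25a28, the broadly used one, had 13.8 and 15.6 against 12.6 and 15.6 FPKM. Their log2 differences were -0.090 ± 0.14 and -0.065 ± 0.14 (limma adjusted p = 0.621 and 0.732).

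The 3 outer membrane channels went different ways although all were abundant. Vdac1 (ENSMUSG00000020402.11; chromosome 11, 52360851 to 52389397) had 185 and 171 FPKM in IgG against 148 and 122.8 in 4E-T (log2 difference -0.39 ± 0.16, limma adjusted p = 0.0438). Vdac3 (chromosome 8, 22577075 to 22593813) had 79.8 and 74.3 in IgG against 113 and 96.3 in 4E-T (log2 difference 0.43 ± 0.15, limma adjusted p = 0.0207). Vdac2 had 111 and 99.6 in IgG against 135 and 120 in 4E-T (0.27 ± 0.16, limma adjusted p = 0.152). The calls of Vdac1 and Vdac3 rested on single libraries and settings. That of Vdac1 ended on leaving out the Exp1 IgG library (adjusted p = 0.287), the Exp2 IgG library (0.170) or the Exp2 4E-T library (0.220), and with no filter or no robust option (range 0.00142 to 0.287). That of Vdac3 ended on leaving out the Exp1 IgG library (adjusted p = 0.108), the Exp2 IgG library (0.205) or the Exp1 4E-T library (0.141), with no filter, and with median ratio scaling (0.120), quantile normalisation or the length correction (range 0.00639 to 0.205).

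A ratio of FPKM between genes of the same library does not depend on the scaling between libraries. Vdac1 stood at 2.32 and 2.30 times the FPKM of Vdac3 in IgG against 1.31 and 1.28 times in 4E-T. Against Vdac2, Vdac1 had ratios of 1.66 and 1.71 in IgG against 1.09 and 1.03 in 4E-T. Both ratios were tight between libraries of the same antibody. They did not overlap between antibodies, which follows from Vdac1 being lower, and Vdac2 and Vdac3 higher, in both 4E-T libraries than in both IgG libraries. The Mpc1 to Mpc2 ratio was 11.8 and 12.4 in IgG against 6.87 and 8.21 in 4E-T. These 3 ratios, and that of Slc25a5 to Slc25a4, were chosen after the values were seen and were not tested. Slc25a5 was 2.94 and 2.6 times Slc25a4 with IgG and 2.63 and 2.67 times with 4E-T, which overlaps. Reads of Vdac3 can be shared with its processed copy Vdac3-ps1, listed with 422 to 611 reads per library against 27472 to 35218 for Vdac3.

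**Figure D4:**
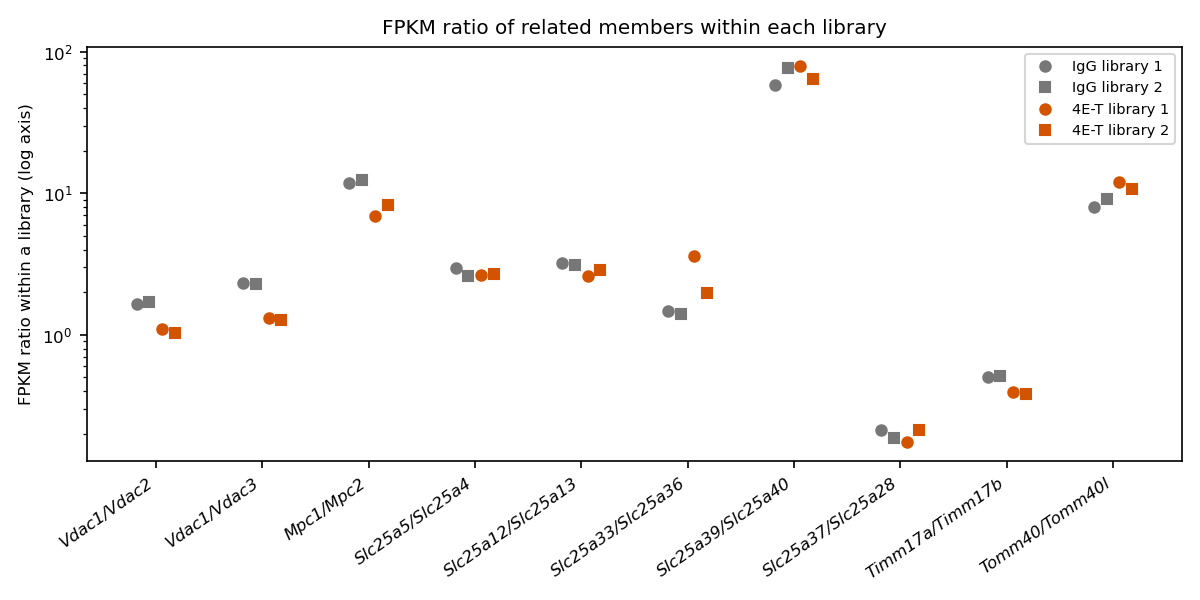
FPKM ratio of related members within each library (vertical log axis), with grey for IgG, orange for 4E-T, circles for Exp1 and squares for Exp2. Vdac1/Vdac3 lies at 2.30 to 2.32 with IgG and 1.28 to 1.31 with 4E-T, while Slc25a5/Slc25a4, Slc25a37/Slc25a28 and Slc25a39/Slc25a40 overlap between antibodies.

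The ratios of the other related pairs were not tested either. Timm17a was 0.50 and 0.511 times Timm17b with IgG and 0.396 and 0.380 times with 4E-T, and Slc25a12 was 3.22 and 3.09 times Slc25a13 with IgG and 2.61 and 2.87 times with 4E-T. The ratio of Slc25a33 to Slc25a36, both pyrimidine nucleotide carriers, was 1.46 and 1.40 in IgG against 3.58 and 1.98 in 4E-T, apart between antibodies but uneven between the 4E-T libraries. Slc25a33 itself had 20.1 and 18.2 FPKM in IgG against 23.7 and 20.1 in 4E-T, overlapping groups with a log2 difference of 0.18 ± 0.14 (limma adjusted p = 0.299).

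At the outer membrane, the TOM pore gene was higher and the receptor genes were not called. Of 10 Tomm-named genes 9 were tested, with 1 higher and 1 lower and a median of -0.038. Each direction thus held 11.1%, against 34.3% higher and 15.2% lower over all tested genes. Tomm40 (ENSMUSG00000002984.17; chromosome 7, 19701313 to 19715442) had 51.1 and 53.2 FPKM in IgG against 83.6 and 73.5 in 4E-T (log2 difference 0.58 ± 0.15, limma adjusted p = 0.00188). The 4E-T libraries were well above, by 0.70 within Exp1 and 0.46 within Exp2; without the Exp1 IgG library the gene narrowly missed the threshold (adjusted p = 0.0595, range 0.000490 to 0.0595). Its low-expressed homologue Tomm40l had 6.38 and 5.83 FPKM in IgG against 6.99 and 6.82 in 4E-T (0.15 ± 0.13, limma adjusted p = 0.345). Tomm40 was 8.0 and 9.12 times Tomm40l with IgG and 11.9 and 10.8 times with 4E-T. Among the receptors, Tomm20 had 19.5 and 17.99 FPKM in IgG against 18.4 and 15.8 in 4E-T (-0.13 ± 0.14, limma adjusted p = 0.478). Tomm22 had 66.3 and 62.4 against 67.7 and 55.5 FPKM (-0.068 ± 0.15, limma adjusted p = 0.733). Both overlapped between antibodies. With median ratio scaling, quantile normalisation and the length correction Tomm20 was called lower (adjusted p = 0.0433, 0.0250 and 0.0211).

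Tomm70a, the receptor for carrier precursors, had 70.9 and 54.8 FPKM in IgG against 80.4 and 78.0 in 4E-T (0.34 ± 0.16, limma adjusted p = 0.0683), and was called where genes under an FPKM of 5 were left out (adjusted p = 0.0487, range 0.0367 to 0.583). The small subunit genes Tomm5 and Tomm7 and the cytosolic co-chaperone gene Tomm34 had differences from -0.15 to 0.17 and overlapping groups. Tomm6, a small subunit, was called lower (2.28 and 3.06 against 1.78 and 1.57 FPKM; -0.45 ± 0.14, limma adjusted p = 0.00705), on 115 to 281 reads per library. It was not called without the Exp2 IgG library (adjusted p = 0.196, range 0.00553 to 0.196) nor in the authors' deposited table (adjusted p = 0.0589). The span of Tomm6 shares 777 bp with Tomm6os and 780 bp with Frs3. Tomm6os itself had 0.541 and 0.457 FPKM in IgG against 0.214 and 0.251 in 4E-T, and the authors' deposited table lists it as lower (adjusted p = 0.0141).

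At the inner membrane, the TIM23 translocase and its motor anchor had 2 of 6 genes higher and 0 lower. As shares these were 33.3% and 0%, against 34.3% and 15.2% of all tested genes. The median of 0.16 was the same as for all tested genes. Timm50, the receptor that hands precursors from TOM to TIM23 (ENSMUSG00000003438.17; chromosome 7, 28305516 to 28312046), had 81.0 and 76.0 FPKM in IgG against 118 and 112 in 4E-T. Replicates were close, with a 1.46-fold increase (log2 difference 0.55 ± 0.15, limma adjusted p = 0.00391). Without the Exp1 IgG library (adjusted p = 0.0531) or the Exp2 IgG library (0.0991) it was not called, in a range of 0.00162 to 0.0991, and the span shares 2207 bp with the non-coding gene Gm51445. The channel gene Timm23 had 77.0 and 78.6 FPKM in IgG against 98.3 and 93.4 in 4E-T (0.30 ± 0.15, limma adjusted p = 0.0994), and was called higher with the length correction (adjusted p = 0.0422, range 0.0422 to 0.468). Of the channel partners, Timm17b had 20.9 and 22.6 against 29.7 and 27.9 FPKM (0.39 ± 0.14, limma adjusted p = 0.0204). Timm17a had 10.5 and 11.5 against 11.8 and 10.6 (0.021 ± 0.14, limma adjusted p = 0.910). The call of Timm17b was lost with each of the 3 other scalings or corrections and on leaving out the Exp1 IgG library, the Exp2 IgG library or the Exp1 4E-T library (adjusted p from 0.00854 to 0.160 across alternatives). Timm44, which tethers the import motor, had 19.3 and 18.1 FPKM in IgG against 16.1 and 16.8 in 4E-T (-0.17 ± 0.14, limma adjusted p = 0.308). Timm44 was called lower with median ratio scaling, quantile normalisation and the length correction (adjusted p = 0.0227, 0.0137 and 0.0296). Timm21, which links TIM23 to the respiratory chain, had a difference of -0.15 ± 0.14 (limma adjusted p = 0.392).

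TIM22 and the small Tim chaperones had 2 of 8 genes higher and 2 lower, with a median of 0.081. Calls in either direction thus made up 25%, against 34.3% higher and 15.2% lower over all tested genes. Timm9 and Timm10, which form the chaperone hexamer of the intermembrane space, were higher together. Timm10 had 68.3 and 59.6 FPKM in IgG against 92.3 and 92.0 in 4E-T (log2 difference 0.52 ± 0.15, limma adjusted p = 0.00494). Timm9 had 10.3 and 10.2 against 14.0 and 13.6 FPKM (0.39 ± 0.14, limma adjusted p = 0.0174). Timm10 was not called without the Exp2 IgG library (adjusted p = 0.136, range 0.00199 to 0.136). Timm9 was not called with any of the 3 other scalings or corrections, nor on leaving out the Exp1 IgG library, the Exp2 IgG library or the Exp1 4E-T library (adjusted p from 0.00671 to 0.127 across alternatives). In the other chaperone hexamer, Timm8a1 had 15.4 and 12.8 FPKM in IgG against 10.8 and 10.9 in 4E-T (-0.35 ± 0.14, limma adjusted p = 0.0387), a call not made in the authors' deposited table (adjusted p = 0.0631), and its partner Timm13 a difference of 0.24 ± 0.15 (limma adjusted p = 0.180). Timm29, known in human cells as a TIM22 subunit, had 35.7 and 30.5 against 25.8 and 25.2 FPKM (-0.36 ± 0.14, limma adjusted p = 0.0369). Timm8a1 and Timm29 lost their calls with no filter and on leaving out the Exp1 IgG library, the Exp1 4E-T library or the Exp2 4E-T library, and Timm29 also on leaving out the Exp2 IgG library (adjusted p from 0.00139 to 0.291 for Timm8a1 and from 0.00100 to 0.283 for Timm29). The TIM22 channel gene Timm22 itself had 18.9 and 18.6 FPKM in IgG against 22.2 and 18.3 in 4E-T, overlapping groups with a difference of 0.096 ± 0.14 (limma adjusted p = 0.594).

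Members called in opposite directions differed in length and level, given here without a test. The 13 higher members had a median exon length of 2564 bp and a median mean FPKM of 38.4. The 13 lower members had 3577 bp and 12.8 FPKM, and the 42 members not called 2189 bp and 17.8 FPKM. Over all tested genes the order of lengths was the opposite, with a median of 3791 bp for genes called higher and 2750 bp for those called lower. After the length correction 7 of the 13 higher members and all 13 lower ones were still called. That setting also moved the median of all tested genes from 0.16 to 0.030, which favours lower calls. The parts of length and level in the calls were not tested.

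Outside the name pattern, 33 listed genes of import, protein insertion, quality control and ion exchange were tested, from a list made by function with earlier results known. Of these 10 were higher and 3 lower (30.3% and 9.09%, against 34.3% and 15.2% of all tested genes), with a median log2 difference of 0.19. Hspa9, the heat shock protein of the import motor that Timm44 anchors, was higher at 376 and 298 FPKM in IgG against 695 and 466 in 4E-T (0.76 ± 0.20, limma adjusted p = 0.00261). Leaving out the Exp2 IgG library ended the calls of Hspa9 (adjusted p = 0.172, range 3.11e-08 to 0.172) and of the protease gene Spg7 (0.0640, range 6.32e-05 to 0.0640). Samm50, the core of the outer membrane sorting machinery that inserts Tomm40, was higher by 0.76 ± 0.15, and its partner Mtx2 by 0.37 ± 0.14 (limma adjusted p = 0.000169 and 0.0274). The call of Mtx2 was lost with no filter, with each of the 3 other scalings or corrections and on leaving out the Exp1 IgG library, the Exp2 IgG library or the Exp1 4E-T library (adjusted p from 0.00990 to 0.210). The related Mtx3 was lower (2.59 and 2.54 against 0.693 and 1.04 FPKM; -0.94 ± 0.13, limma adjusted p = 1.81e-06). Further genes called higher were Letm1 (0.72 ± 0.14), an inner membrane ion exchanger, and the inner membrane protease genes Spg7 (0.63 ± 0.15) and Afg3l2 (0.53 ± 0.15). The other 4 called higher were the inner membrane peptidase subunit Immp2l (0.54 ± 0.13), the presequence peptidase subunit Pmpcb (0.50 ± 0.17), Mtch1 (0.48 ± 0.16) and the motor exchange factor Grpel1 (0.35 ± 0.14), with limma adjusted p of 0.00110, 0.0206, 0.0145 and 0.0408. The calls of Pmpcb and Grpel1 were lost with no filter, with quantile normalisation and with the length correction, and that of Grpel1 without the robust option. Median ratio scaling and leaving out the Exp2 IgG library or the Exp1 4E-T library ended the calls of Pmpcb, Mtch1 and Grpel1, and leaving out the Exp1 IgG library those of Mtch1 and Grpel1 (adjusted p up to 0.284, 0.191 and 0.355, and down to 0.000105, 0.00422 and 0.0128). Afg3l2 was not called with median ratio scaling (adjusted p = 0.0567) or on leaving out the Exp2 IgG library (0.140) or the Exp1 4E-T library (0.164, range 8.21e-05 to 0.164). Mcu, the pore of the calcium uniporter, was lower (21.7 and 21.2 against 10.4 and 10.6 FPKM; -0.96 ± 0.14, limma adjusted p = 2.00e-06). Ucp2, an uncoupling protein and Slc25 carrier by sequence whose symbol the pattern does not catch, was lower too (31.3 and 29.4 against 20.3 and 17.6 FPKM; -0.66 ± 0.14, limma adjusted p = 0.000331). Samm50, Letm1, Immp2l, Mcu, Mtx3 and Ucp2 were called under every alternative in which they were tested; Immp2l and Mtx3 fell under the FPKM minimum of 5.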

How the data were processed

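The data were 1 deposited table of genes from 4 immunoprecipitates. Per the submitters' processing notes, the tools included DESeq2 1.26.0, STAR 2.6.0c and HTSeq 0.6.1p2, with build mm10; their roles and settings are not given in the sources used here. cDNA came from SMART-Seq v4, per the labels' protocols, a kit that does not mark strand. FPKM per gene and library were deposited by the authors. Per the file headers, baseMean is a signal: reads averaged after normalisation. The log2 fold change, its SE, the test statistic (a score), p-values and linear fold change are the authors' comparison, per the file headers.

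FPKM with baseMean gave whole reads for 100% of 86952 values (tolerance 0.01 read), from which depth and exon length were taken. The recovery and the test were checked on simulated data. Counting error was not set against the spread between libraries. Genes reaching an FPKM of 1 in 2 or more libraries entered the test, made with limma 3.58.1 (R 4.3.3; trend and robust options) on log2(FPKM + 1), antibody as the only term, with Benjamini-Hochberg adjustment over 12585 genes and a threshold of 0.05. Differences are 4E-T minus IgG on that scale, which understates changes of low genes; folds are taken from them. The p-values reflect only how these 4 libraries vary, possibly for technical reasons, and with 2 residual degrees of freedom per gene rely on a spread shared across genes. Alternatives were the experiment number as a block, a pseudocount of 0.1, no filter, an FPKM minimum of 5, median ratio scaling, quantile normalisation, a loess correction for exon length, no robust option, and each library left out. The rule named the 8 called members with the largest difference in each direction, 16 core members and 6 pairs of relatives; other members are given by role group. The members and lists were chosen with earlier results of these data known. Positions and overlaps are those of RefSeq on GRCm38.p6, the assembly of mm10, matched by symbol. An item of the marker list is not reported here.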

Additional observations from a re-analysis of the deposited data

How the results depend on the processing

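Over 12 alternatives, 4 members stayed lower and 1 stayed higher throughout; with 2 libraries per antibody, leaving 1 out assumes that the lone library varies like the others. Against 13 higher and 13 lower members, median ratio scaling gave 6 and 23, quantile normalisation 6 and 21, and the length correction 8 and 19, while all tested genes went from 4318 and 1912 to 2870 and 2969, 3157 and 2827, and 3132 and 2769. Leaving out a library gave 2 to 13 higher and 7 to 10 lower members, and 2389 to 4259 higher and 1101 to 1755 lower genes in all. With median ratio scaling 49.2% of all limma calls were higher, against 69.3% on the authors' FPKM scaling. The members' median moved from 0.012 to -0.17 (median ratio), -0.15 (quantile), -0.073 (length) and 0.081 (FPKM of at least 5), and to between -0.020 and 0.082 with a library left out. Over all tested genes it moved alike under the first 3 settings, from 0.16 to -0.0025, 0.031 and 0.030. With an FPKM minimum of 5 the remaining members kept their differences, and the median moved as low members dropped out. The cause of the shifts with a library left out was not tested. Of 36 named members, 8 turned sign somewhere, none of them called. Median ratio scaling, quantile normalisation and the length correction lower the median of all genes, which can turn a small positive value negative. The length correction also depends on the exon length of each gene. With these settings, in that order, values turned negative for Mpc2 (-0.048, -0.047, -0.068), Timm22 (-0.083, -0.11, -0.041), Timm17a (-0.15, -0.15, -0.29) and Tomm40l (-0.0088, -0.0057, -0.054). Slc25a33 turned negative with quantile normalisation alone (-0.025). Timm17a, with an exon length of 7280 bp, moved from 0.021 to -0.29 with the length correction, further than the median of all genes. Leaving out a library took Mpc2 from -0.0022 to 0.23, Timm22 from -0.036 to 0.23, Timm17a from -0.043 and -0.048 to 0.091, Tomm22 from -0.21 to 0.073, Slc25a37 from -0.31 to 0.13, and Slc25a28 from -0.21 to 0.016 and 0.080. With the experiment number as a block, 14 members were higher and 14 lower, against 4745 and 2099 of all genes; Tomm70a was among the former (adjusted p = 0.0367, range 0.0367 to 0.583). Libraries of the same number did not deviate together (r = 0.064 across genes, which are not independent). With 1 difference per antibody for each gene, this value cannot show whether same-numbered libraries were paired. The number was used as a block in that alternative only.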
